A study of Mus musculus with 6 samples.

Results

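The genes described here are 60 genes of G2 and mitosis, that is, cyclins, mitotic kinases, and proteins of the spindle, the kinetochore, the condensed chromosome and cytokinesis. They were chosen by name, and all 60 were found among the 23307 genes of the deposited table. RNA was sequenced in bulk from inguinal lymph nodes of SJL mice, taken on day 3 after experimental autoimmune encephalomyelitis (EAE) was induced, and meshed into a cell suspension. EAE models multiple sclerosis by immunization against myelin antigens. The 2 groups were 3 mice with EAE treated therapeutically with perampanel and 3 control mice with EAE. Perampanel is used against seizures and acts as an antagonist of the AMPA receptor for glutamate. All 6 mice shared the strain and the disease induction, the labels give no age, sex, dose or vehicle, and they name 3 mice per group without saying that nodes were kept apart, so p-values measure the spread between these libraries. The comparison asks how blockade of the receptor alters gene expression in the node that drains the site of immunization.

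Entry into mitosis is driven by the kinase CDK1 bound to cyclin A or cyclin B. The chromosomes are then condensed, attached to the spindle through kinetochores, held by the spindle checkpoint until every attachment is made, and released when the anaphase-promoting complex marks cyclin B and securin for destruction. Most of these genes are transcribed only in cycling cells and peak late in the cycle. In a lymph node after immunization, dividing cells are mainly lymphocytes that have met their antigen. In bulk RNA, fewer cycling cells and less mitotic RNA per cycling cell cannot be told apart.

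Libraries held 1779724 to 2003726 reads under perampanel and 2036072 to 2208589 in controls, so every perampanel library was shallower, and perampanel 3 was the shallowest. Values are read counts divided by 1 size factor per library, called normalized read counts below, and 1 read was worth 0.913 to 1.14 of them. The labels name lymphocytes, and T cell markers were abundant. The 6 T cell markers summed to 5483 to 5708 CPM (a library's normalized reads scaled to a total of 1000000) under perampanel and 5101 to 5600 in controls, with overlap. Of these, Cd8a was lower without overlap (138 to 150 normalized read counts under perampanel, 172 to 192 in controls). Trac was higher without overlap (5176 to 5247 against 4455 to 4924), and the others overlapped. The 6 B cell markers summed to only 32.03 to 43.0 CPM under perampanel and 35.3 to 60.9 in controls, with overlap. Ebf1 had a higher mean under perampanel (23.1 against 16.6 normalized read counts), and the other means were lower. Markers of germinal centre B cells, which divide rapidly, were lower under perampanel as a sum. Rgs13, S1pr2, Mef2b and Gcsam, 4 markers of these cells chosen after seeing the data, summed to 6.99, 6.004 and 7.30 CPM under perampanel and 18.2, 16.3 and 7.79 in controls. The groups did not overlap in this sum, which rests on 12 to 14 reads per perampanel library and 17 to 37 per control library, and its part in the results was not tested. S1pr2 had close means (7.31 normalized read counts under perampanel, 7.86 in controls), and Mef2b a lower one (6.10 against 10.6). Most of Rgs13 came from control 1 (13.8) and most of Gcsam from control 2 (10.96). The 5 regulatory T cell markers summed to 211, 202 and 133 CPM under perampanel and 211, 177 and 202 in controls, lowest in perampanel 3. Tnfrsf18, the most abundant of the 5, had a higher mean under perampanel (228 against 184 normalized read counts). The other means were lower, for Foxp3 (34.6 against 53.5), Ikzf2 (45.5 against 77.3), Il2ra (42.5 against 53.2) and Ctla4 (18.9 against 26.4). Of the 5, only Foxp3 did not overlap between the groups. The 5 erythroid and neutrophil markers were higher without overlap, at 7.99, 8.01 and 17.4 CPM under perampanel and 5.89, 4.08 and 5.04 in controls, and the part of these last 2 lists in the results was not tested. The sums of NK cell, plasma cell, macrophage and dendritic cell and stromal markers overlapped between the groups, and Sdc1, Klra8, Adgre1 and Cd14 had no read.

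G2 and mitosis genes as a whole were at a lower level in nodes of perampanel-treated mice. The 60 genes together took 1478, 1284 and 957 CPM in perampanel 1 to 3, against 2062, 1637 and 1721 CPM in controls 1 to 3. All 3 perampanel libraries lay below all 3 controls, with perampanel 3 the lowest and control 1 the highest. The mean was 1240 ± 263 CPM under perampanel and 1807 ± 225 in controls (SD, n = 3 each), a ratio of 0.686. Smc4 alone had a mean of 893 normalized read counts, the highest of the 60, and without it the ratio was 0.638. The ratio was 0.764 without perampanel 3 and 0.738 without control 1. Over all 60 genes, 56 had a lower mean under perampanel, as had 49.5% of all detected genes.

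Of the 60 genes, 50 averaged 10 or more normalized read counts over the libraries and were tested with limma on log2(value + 1), in a fit over all 9076 genes that passed this filter. A gene was called at a Benjamini-Hochberg adjusted p under 0.05 over all of these. The calls were 10 lower and 0 higher, against 0.683% of all tested genes called lower and 0.419% called higher (1.1% in either direction). The groups did not overlap in 23 of the 50, all of them with perampanel below control, as was so for 6.9% of all tested genes, while 7.18% of all tested genes lay above without overlap. An unadjusted p under 0.05 was reached by 36 of the 50 as lower, against 4.97% of all tested genes. The median log2 fold change of the 50 was -1.03, against 0.00 over all genes tested, and 26 of them were at -1 or below, against 0.87% of all tested genes. The fold was negative for 49 of the 50, against 49.7% of all tested genes, and the exception was Kif23. With edgeR on the recovered reads the median was -0.90, the fold was smaller in size for 38 of the 50, and the sign turned for 2, Cdc25b and Cenpf. For 16 of the 50 the perampanel mean was itself under 10, so these passed the filter through the controls, and these counts are a description rather than evidence about the set. Of the 10 called, 2 were among these 16, Cdca8 (perampanel mean 9.06) and Ncapg (7.91).

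**Figure D1:**
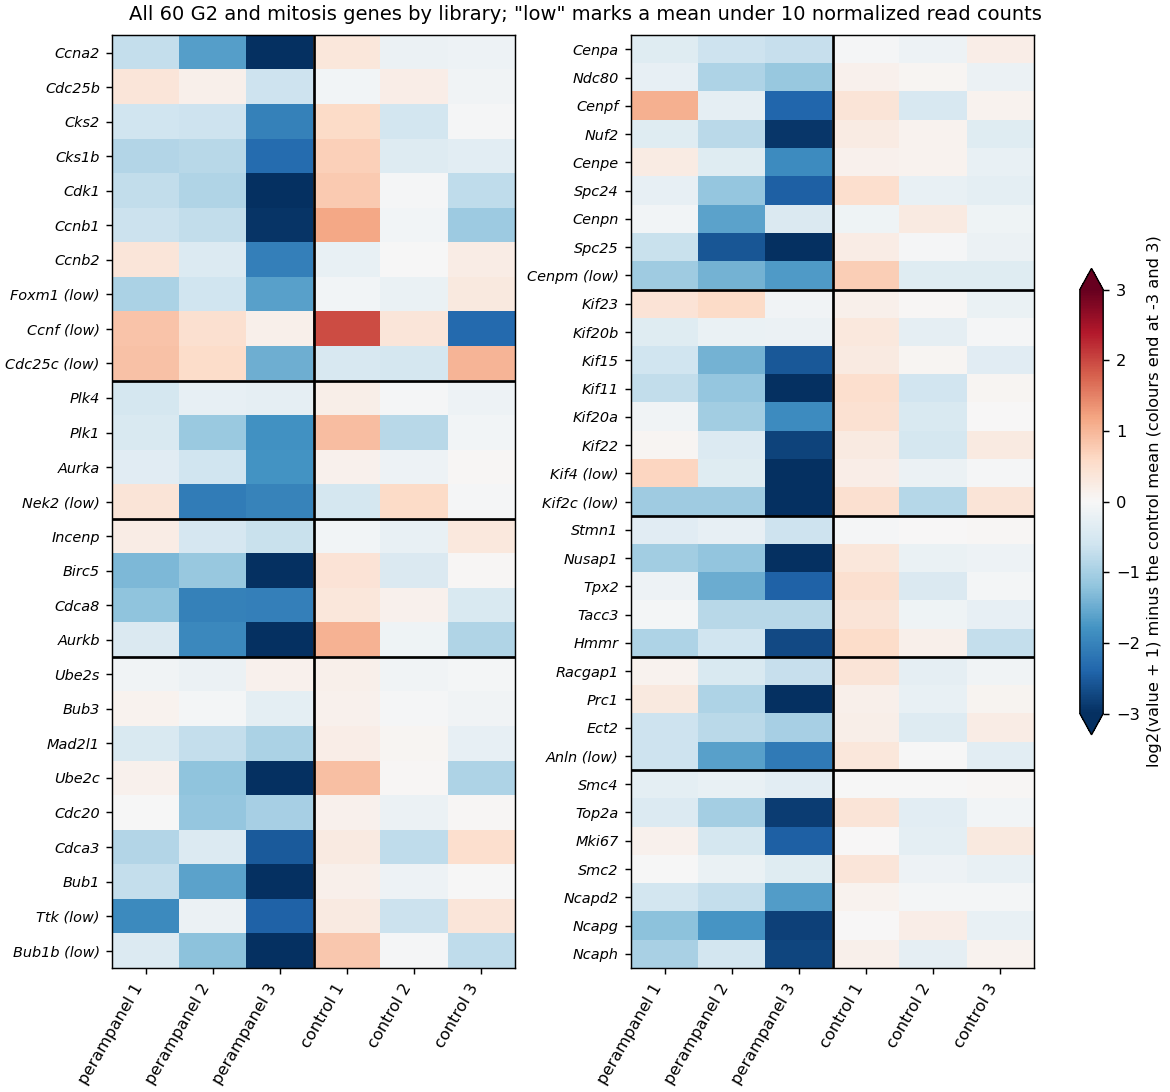
All 60 G2 and mitosis genes (rows, grouped by role) in the 6 libraries (columns, perampanel left of control). Colour gives log2(value + 1) minus the control mean; blue is lower, and the colours end at -3 and 3. Perampanel 3 is the lowest library for 51 of the 60 genes.

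The 3 perampanel libraries were not alike. Perampanel 3 was the lowest of the 6 libraries for 43 of the 50 tested genes, against 18.2% of all tested genes. It lay below all 3 controls for 47 of the 50, against 27.1% of all tested genes. Perampanel 2 lay below all 3 controls for 40 of the 50 and perampanel 1 for 27, against 27.3% and 26.5% of all tested genes. Perampanel 1 was above the control mean for 11 of the 50, perampanel 2 for 2 and perampanel 3 for 1. Among controls, control 1 was the highest of the 6 libraries for 35 of the 50, against 18.5% of all tested genes. The median fold change was -0.59 without perampanel 3 and -1.47 without perampanel 1. Calls numbered 7 without perampanel 3, all among the 10 (against 0.661% of all tested genes called lower there), 22 without perampanel 1 (0.815% of all tested genes), 4 without control 1 (0.275%) and 1 without control 2, which was Birc5 (0.43%).

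The promoters of these genes share sequence features that the choice of genes did not use. In other studies many G2 and mitosis genes were found to be repressed and activated through the cell cycle genes homology region (CHR), with the core TTTGAA, and through CCAAT boxes bound by the factor NF-Y. RefSeq promoter windows of 300 bases on GRCm38.p6 were at hand for 50 of the 60 genes, all but Ccna2, Cdc25c, Foxm1, Aurkb, Incenp, Spc24, Kif20a, Tpx2, Stmn1 and Smc4. TTTGAA was found on either strand in 35 of the 50 (70%), against 12.0% of windows of all tested genes and 17.9% of all windows. CCAAT was found in 37 of the 50 (74%), against 38.1% of windows of tested genes, and both motifs in 30 (60%), against 4.90%. The variant core TTCGAA, which reads the same on both strands, was in 6 of the 50 (12%), against 2.27%. Matches of different motifs overlapped in 1 of the windows. Shown are the 150 bases before the RefSeq start of 6 genes, 2 that fell by more than 1 on the log2 scale, Top2a and Ncapg, 2 with such a fold that missed the threshold, Cdk1 and Kif11, and 2 that differed little, Smc2 and Kif23. Capitals mark these 3 motifs, read on either strand. Each sequence is on the strand of the gene, 5′ to 3′.
Top2a (chr11:99024190-99024339, minus strand): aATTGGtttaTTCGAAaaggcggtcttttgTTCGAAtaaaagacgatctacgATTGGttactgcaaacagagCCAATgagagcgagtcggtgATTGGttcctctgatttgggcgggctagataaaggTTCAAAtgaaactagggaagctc
Ncapg (chr5:45669775-45669924, plus strand): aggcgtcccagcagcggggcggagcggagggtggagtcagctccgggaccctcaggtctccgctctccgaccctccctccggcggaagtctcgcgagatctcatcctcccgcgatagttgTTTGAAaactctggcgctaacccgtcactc
Cdk1 (chr10:69352913-69353062, minus strand): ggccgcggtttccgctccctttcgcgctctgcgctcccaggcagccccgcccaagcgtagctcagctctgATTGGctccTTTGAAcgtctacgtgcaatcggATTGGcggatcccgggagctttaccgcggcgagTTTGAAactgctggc
Kif11 (chr19:37376232-37376381, plus strand): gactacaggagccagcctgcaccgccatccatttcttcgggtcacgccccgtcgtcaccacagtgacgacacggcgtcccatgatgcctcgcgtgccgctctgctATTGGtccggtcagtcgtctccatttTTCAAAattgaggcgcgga
Smc2 (chr4:52439071-52439220, plus strand): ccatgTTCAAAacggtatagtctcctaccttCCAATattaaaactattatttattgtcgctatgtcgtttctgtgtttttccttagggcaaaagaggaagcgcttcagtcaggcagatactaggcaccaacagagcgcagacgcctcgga
Kif23 (chr9:61946800-61946949, minus strand): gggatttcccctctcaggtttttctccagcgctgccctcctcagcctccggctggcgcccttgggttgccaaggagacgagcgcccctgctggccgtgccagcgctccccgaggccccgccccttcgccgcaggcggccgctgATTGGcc

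The motif was common whatever the fold change of the gene. Of the tested genes with a window, TTTGAA was found for 14 of 21 with a fold change of -1 or below, and for 5 of 8 above -0.5. Among the genes called lower it was in 6 of the 8 with a window and was not found in those of Birc5 and Nusap1. In Kif23, whose fold was positive, it begins at base 3, with the start counted as base 1. No difference between these shares was tested, and a match of letters is not a site of binding.

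Among cyclins, CDK1 and its switches, which drive mitotic entry, 2 of 7 tested genes fell and none rose, with a median log2 fold change of -1.34. Ccna2 (cyclin A2, which carries CDK1 through G2; chromosome 3, 36564865 to 36572150, GRCm38, protein-coding) had 46.9, 24.2 and 3.43 normalized read counts under perampanel and 98.4, 69.4 and 69.8 in controls. All treated libraries were below all controls, and perampanel 3 held only 3 reads. Ccna2 fell by 2.18 ± 0.45 on the log2 scale (SE, 95% interval -3.10 to -1.26, limma adjusted p = 0.00878). The fold was -1.19 without perampanel 3, where the call held, and -2.26 without control 2, where it was lost. Cks1b, a small subunit that binds cyclin-dependent kinases (chromosome 3, 89415472 to 89418383), had 26.5, 27.2 and 9.16 under perampanel and 81.7, 37.4 and 39.5 in controls. Control 1 stood well above the other controls, and the groups did not overlap. Cks1b fell by 1.34 ± 0.32 (limma adjusted p = 0.0318), and it no longer passed without control 1 (-0.99), control 2 (-1.54) or perampanel 3 (-0.86). Its paralogue Cks2 had 38.8, 38.3 and 13.7 under perampanel and 88.6, 40.2 and 57.9 in controls (log2 -1.08, 95% interval -1.68 to -0.48, limma adjusted p = 0.0733). The log2 ratio of Cks1b to Cks2 within a library was -0.53, -0.48 and -0.54 under perampanel and -0.12, -0.10 and -0.54 in controls, with overlap. Both genes share sequence with other genes: 29.7% of the 50-base words of Cks2 transcripts and 5.52% of those of Cks1b occur in other annotated genes.

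The kinase and its B-type cyclins did not pass the test. Cdk1, the kinase itself, had 20.4, 18.2 and 3.43 under perampanel and 61.0, 33.8 and 20.2 in controls, so that perampanel 1 and control 3 were nearly equal (log2 -1.55, interval -2.44 to -0.67, limma adjusted p = 0.0818). Ccnb1, cyclin B1, had 15.3, 14.1 and 2.29 under perampanel and 56.1, 22.8 and 11.02 in controls (log2 -1.45, limma adjusted p = 0.255), and 23.4% of its 50-base words occur in other annotated genes. Cyclin B2, Ccnb2, had 28.6, 16.1 and 4.58 under perampanel and 18.7, 21.9 and 25.7 in controls (log2 -0.70), with perampanel 1 the highest of the 6. Without perampanel 3 the fold of Ccnb2 was -0.03, and with edgeR -0.40. Cdc25b, a phosphatase that activates CDK1, was at 48.9 ± 16.1 under perampanel and 48.1 ± 5.87 in controls (SD, n = 3 each), a fold change of -0.03 with an interval of -0.47 to 0.42 (0.036 with edgeR).

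**Figure D2:**
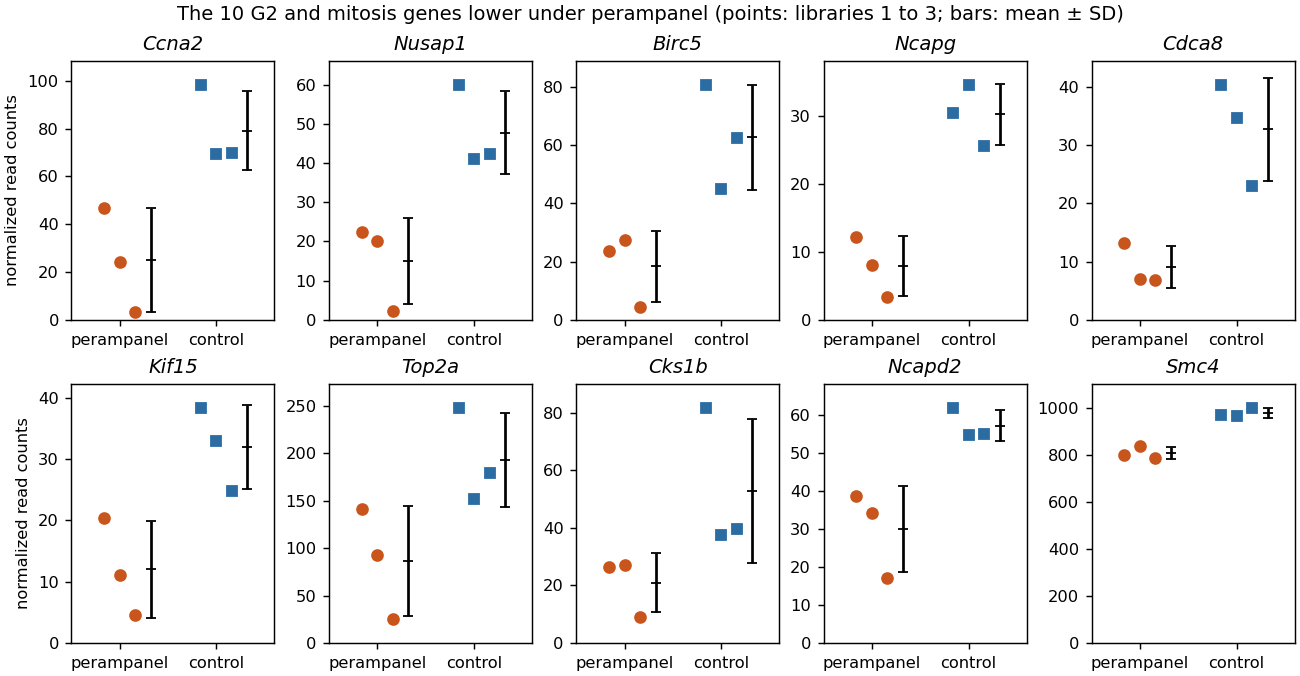
Normalized read counts (vertical axis, from 0) of the 10 called genes in perampanel libraries 1 to 3 (orange circles) and control libraries 1 to 3 (blue squares), with the mean ± SD of each group at its right. In every panel all perampanel libraries lie below all controls, by a wide margin for Ncapg (3.43 to 12.2 against 25.7 to 34.7) and a narrow one for Top2a (25.2 to 141 against 152 to 248).

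None of the 3 tested mitotic kinases passed by limma or edgeR, with 2 at an unadjusted p under 0.05. Plk4, which starts centriole duplication (chromosome 3, 40800019 to 40816883), had 27.5, 33.3 and 33.2 normalized read counts under perampanel and 45.3, 39.3 and 35.8 in controls. The groups did not overlap, and the gap between them was small (log2 -0.35 ± 0.21, interval -0.78 to 0.09, limma adjusted p = 0.658). Plk1, which acts from mitotic entry to cytokinesis, had 13.3, 8.07 and 4.58 under perampanel and 36.4, 10.05 and 17.5 in controls, with control 2 below perampanel 1 (log2 -1.13). Aurka, the kinase of spindle poles, had 11.2, 9.08 and 3.43 under perampanel and 15.7, 12.8 and 14.7 in controls (log2 -0.91), without overlap.

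In the chromosomal passenger complex, which corrects faulty attachments and then moves to the midzone, 2 of 4 subunits fell. Birc5 (survivin; chromosome 11, 117849251 to 117855743) had 23.5, 27.2 and 4.58 under perampanel and 80.7, 44.8 and 62.5 in controls. The lowest control lay well above the highest treated library. Birc5 fell by 1.98 ± 0.38 (interval -2.75 to -1.21, limma adjusted p = 0.00442), and it was the 1 gene of the 10 whose call held whichever library was left out, with -1.24 without perampanel 3. Cdca8 (borealin; chromosome 4, 124918465 to 124939311) had 13.3, 7.06 and 6.87 under perampanel and 40.4, 34.7 and 23.0 in controls. Here perampanel 2 and 3 were nearly equal, and the fall was 1.76 ± 0.33 (limma adjusted p = 0.00442), or -1.61 without perampanel 3. The call was lost without control 1 (-1.60) or control 2 (-1.70). Aurkb, the kinase of the complex, had 13.3, 4.03 and 1.14 under perampanel and 38.4, 16.4 and 9.18 in controls, with overlap (log2 -1.84, limma adjusted p = 0.136). Incenp, the scaffold (chromosome 19, 9872296 to 9899551), had 62.2, 37.3 and 33.2 under perampanel and 50.2, 45.7 and 66.1 in controls. Its groups overlapped widely and it did not pass (log2 -0.32 ± 0.22, interval -0.76 to 0.12, limma adjusted p = 0.691). Within each library, the log2 ratio of Cdca8 to Incenp was -2.15, -2.25 and -2.12 under perampanel and -0.31, -0.39 and -1.49 in controls, with no overlap between the groups. The same held for Birc5 over Incenp, at -1.37, -0.44 and -2.62 under perampanel and 0.67, -0.03 and -0.08 in controls. Aurkb over Incenp overlapped between the groups, at -2.15, -2.93 and -3.995 under perampanel and -0.38, -1.42 and -2.72 in controls. These ratios restate the values above and are no separate result, and no share over other gene pairs was computed.

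Genes of the spindle checkpoint and of cyclin destruction gave 0 calls among 7 tested, with 5 at an unadjusted p under 0.05 and 0 called by edgeR. Bub1, a checkpoint kinase at kinetochores, had 10.2, 5.04 and 0 normalized read counts under perampanel and 19.7, 15.5 and 17.5 in controls, without overlap (log2 -2.18, interval -3.44 to -0.92, limma adjusted p = 0.0872). Mad2l1, which holds CDC20 inactive, had 38.8, 32.3 and 27.5 under perampanel and 62.0, 55.7 and 45.0 in controls, also without overlap (log2 -0.71, limma adjusted p = 0.0973). The APC/C activator Cdc20 was at 25.5, 11.1 and 12.6 under perampanel and 28.5, 22.8 and 26.6 in controls (log2 -0.72). Ube2c, the E2 enzyme that starts ubiquitin chains for the APC/C, ranged widely, from 3.43 to 55.1 under perampanel and from 25.7 to 93.5 in controls (log2 -1.53). Ube2s, the E2 enzyme that extends those chains (chromosome 7, 4794546 to 4812590), had the most reads of this group. It shares exon bases with Rpl28, so some of these reads may belong to that gene. Ube2s had 229, 221 and 272 under perampanel and 277, 232 and 239 in controls, a fold change of -0.05 ± 0.10 with an interval of -0.26 to 0.16 (limma adjusted p = 0.928). Its sign changed with single libraries, to 0.028 without control 1 and 0.01 without perampanel 2. Bub3, which brings BUB1 to kinetochores, was at 133 ± 18.2 under perampanel and 140 ± 11.4 in controls (SD, n = 3 each; log2 -0.08, interval -0.33 to 0.18). Cdca3, a trigger of mitotic entry through destruction of WEE1, was at -1.27 and did not pass.

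At the centromere and kinetochore 0 of 8 tested genes were called, with 5 at an unadjusted p under 0.05 and 0 called by edgeR, and all 8 folds were negative. Most reads came from Cenpa, the histone H3 variant that marks centromeres (chromosome 5, 30666777 to 30674830), with 72.4, 60.5 and 57.2 under perampanel and 90.6, 83.1 and 107 in controls. All treated libraries were below all controls (log2 -0.56 ± 0.15, interval -0.87 to -0.24, limma adjusted p = 0.0818). The 4 subunits of the NDC80 complex, which grips microtubules, had folds of -2.46 for Spc25, -1.36 for Nuf2, -1.29 for Spc24 and -0.77 for Ndc80. Spc25 stood nearest to the threshold, with 10, 2 and 0 reads under perampanel and 20, 18 and 16 in controls (limma adjusted p = 0.0544). Perampanel 3 had no read, so the size of its fold depends on the pseudocount. Cenpf, a large protein of the outer kinetochore, had 47.9, 18.2 and 3.43 under perampanel and 29.5, 15.5 and 23.9 in controls, with both the highest and the lowest library in the treated group (log2 -0.53). Its group means were 23.2 under perampanel and 23.0 in controls, and the fold was positive with edgeR (0.049) and without perampanel 3 (0.40), so no direction is given for Cenpf. Cenpe, a kinetochore kinesin, was at -0.66 (-0.42 with edgeR, -0.05 without perampanel 3) and Cenpn, which binds CENP-A nucleosomes, at -0.70.

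Among kinesins, the motors of the spindle, 1 of 6 tested fell. Kif15, which helps to keep spindle poles apart (chromosome 9, 122951046 to 123018733), had 20.4, 11.1 and 4.58 normalized read counts under perampanel and 38.4, 32.9 and 24.8 in controls. The groups did not overlap, and Kif15 fell by 1.53 ± 0.37 (limma adjusted p = 0.0343). That call was lost without control 1 (-1.39), control 2 (-1.50), perampanel 2 (-1.57) or perampanel 3 (-1.02). Kif11, the main motor that separates the poles, had 15.3, 11.1 and 2.29 under perampanel and 37.4, 17.4 and 27.6 in controls, without overlap (log2 -1.65, limma adjusted p = 0.0695). Kif22 and Kif20a, motors of chromosome arms and of the midzone, were at -1.04 and -1.01, and Kif20b at -0.24. For Kif22 the fold was -0.68 with edgeR and -0.17 without perampanel 3. Kif23, a subunit of centralspindlin at the midzone (chromosome 9, 61915905 to 61946774), had the most reads of the kinesins and was the 1 tested gene with a positive fold. It had 130, 143 and 89.3 under perampanel and 108, 98.6 and 84.5 in controls, with overlap (log2 0.29 ± 0.15, interval -0.02 to 0.60, limma adjusted p = 0.586). Its partner in centralspindlin, Racgap1, is described with cytokinesis.

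Of 5 tested spindle microtubule proteins 1 fell. Nusap1, which bundles microtubules at chromosomes (chromosome 2, 119618298 to 119651244), had 22.4, 20.2 and 2.29 under perampanel and 60.04, 41.1 and 42.3 in controls. All treated libraries were below all controls, and Nusap1 fell by 2.03 ± 0.44 (interval -2.94 to -1.12, limma adjusted p = 0.0144). The fold was -1.11 without perampanel 3, where the call held, and the call was lost without control 1 (-1.86) or control 2 (-2.13). Stmn1, a protein that takes microtubules apart (chromosome 4, 134468320 to 134473843), had 131, 139 and 106 under perampanel and 160, 165 and 170 in controls. The controls lay close together and above every treated library, yet Stmn1 did not pass (log2 -0.40 ± 0.12, interval -0.65 to -0.16, limma adjusted p = 0.113), and 18.9% of its 50-base words occur in other annotated genes. Hmmr and Tpx2, factors of spindle assembly, were at -1.41 and -1.35, and Tacc3, which stabilizes spindle fibres, at -0.58.

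None of the 3 tested genes of the midzone and cytokinesis passed by limma or edgeR, with 2 at an unadjusted p under 0.05. Racgap1 (chromosome 15, 99620496 to 99651656) had 57.1, 38.3 and 32.1 under perampanel and 68.9, 43.8 and 48.7 in controls, with overlap (log2 -0.35 ± 0.22, interval -0.79 to 0.09, limma adjusted p = 0.663). Prc1, which crosslinks the midzone, had 45.9, 19.2 and 2.29 under perampanel and 41.3, 31.97 and 39.5 in controls, so perampanel 1 was the highest library and perampanel 3 the lowest (log2 -1.39). The fold of Prc1 was -0.70 with edgeR and -0.32 without perampanel 3. Ect2, which activates the GTPase RhoA at the cleavage plane, had 9.18, 8.07 and 6.87 under perampanel and 16.7, 10.96 and 17.5 in controls (log2 -0.81, limma adjusted p = 0.535), without overlap.

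Chromosome condensation held 4 of the 10 calls, among 7 tested genes. Top2a, the topoisomerase that untangles sister chromatids (chromosome 11, 98992943 to 99024189), had 141, 92.8 and 25.2 normalized read counts under perampanel and 248, 152 and 179 in controls. Perampanel 1 came close to control 2, and the groups did not overlap. Top2a fell by 1.43 ± 0.32 (interval -2.08 to -0.78, limma adjusted p = 0.0164). The fold was -0.72 without perampanel 3, where the call held, and the call was lost without control 1 (-1.24) or control 2 (-1.59). Mki67, the Ki-67 protein that coats mitotic chromosomes and is the usual stain for dividing cells, had 130, 81.7 and 20.6 under perampanel and 118, 95.9 and 144 in controls. Perampanel 1 lay among the controls, and Mki67 did not pass (log2 -0.95, interval -1.64 to -0.26, limma adjusted p = 0.266). Without perampanel 3 its fold was -0.19, and with edgeR -0.60.

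The 5 subunits of condensin I, the ring that compacts mitotic chromosomes, covered a wide range. Ncapg (chromosome 5, 45669919 to 45700546) had 12.2, 8.07 and 3.43 under perampanel and 30.5, 34.7 and 25.7 in controls. The treated libraries lay far below the controls, and Ncapg fell by 1.94 ± 0.37 (interval -2.70 to -1.17, limma adjusted p = 0.00459), with a call that, among the libraries left out in turn, was lost only without control 2 (-1.84). Ncapd2 (chromosome 6, 125168007 to 125191701) had 38.8, 34.3 and 17.2 under perampanel and 62.0, 54.8 and 55.1 in controls and fell by 0.98 ± 0.24 (limma adjusted p = 0.0328), a call lost without perampanel 3 (-0.64) and without control 1 (-0.93), control 2 (-1.01) or control 3 (-1.01). Ncaph, the kleisin that closes the ring, had 10.2, 14.1 and 2.29 under perampanel and 23.6, 17.4 and 23.0 in controls and did not pass (log2 -1.43, limma adjusted p = 0.144). Smc4, 1 of the 2 ATPases of the ring, was the most abundant of the 60 genes, with 171 normalized read counts per kilobase of exon over all libraries, against 17.0 for its partner Smc2 and 2.70 for Ncapg. Smc4 (chromosome 3, 69004738 to 69034623) had 801, 838 and 786 normalized read counts under perampanel and 969, 964 and 1001 in controls. Both groups were tight, and Smc4 fell by 0.27 ± 0.06 (interval -0.39 to -0.16, limma adjusted p = 0.0111), with calls lost without control 2 (-0.28) or control 3 (-0.26). Smc2 had 97.9, 84.7 and 75.6 under perampanel and 126, 88.6 and 84.5 in controls, with overlap (log2 -0.19, interval -0.51 to 0.12, limma adjusted p = 0.748). The log2 ratio of Ncapg to Smc2 within a library was -2.90, -3.24 and -4.11 under perampanel and -2.01, -1.33 and -1.68 in controls, without overlap. The ratios of Ncapd2 and of Ncaph to Smc2 did not overlap between the groups either. As for the passenger complex, such ratios restate the values above and are no separate result. SMC2 and SMC4 also serve condensin II, whose own subunits were read in a separate list.

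**Figure D3:**
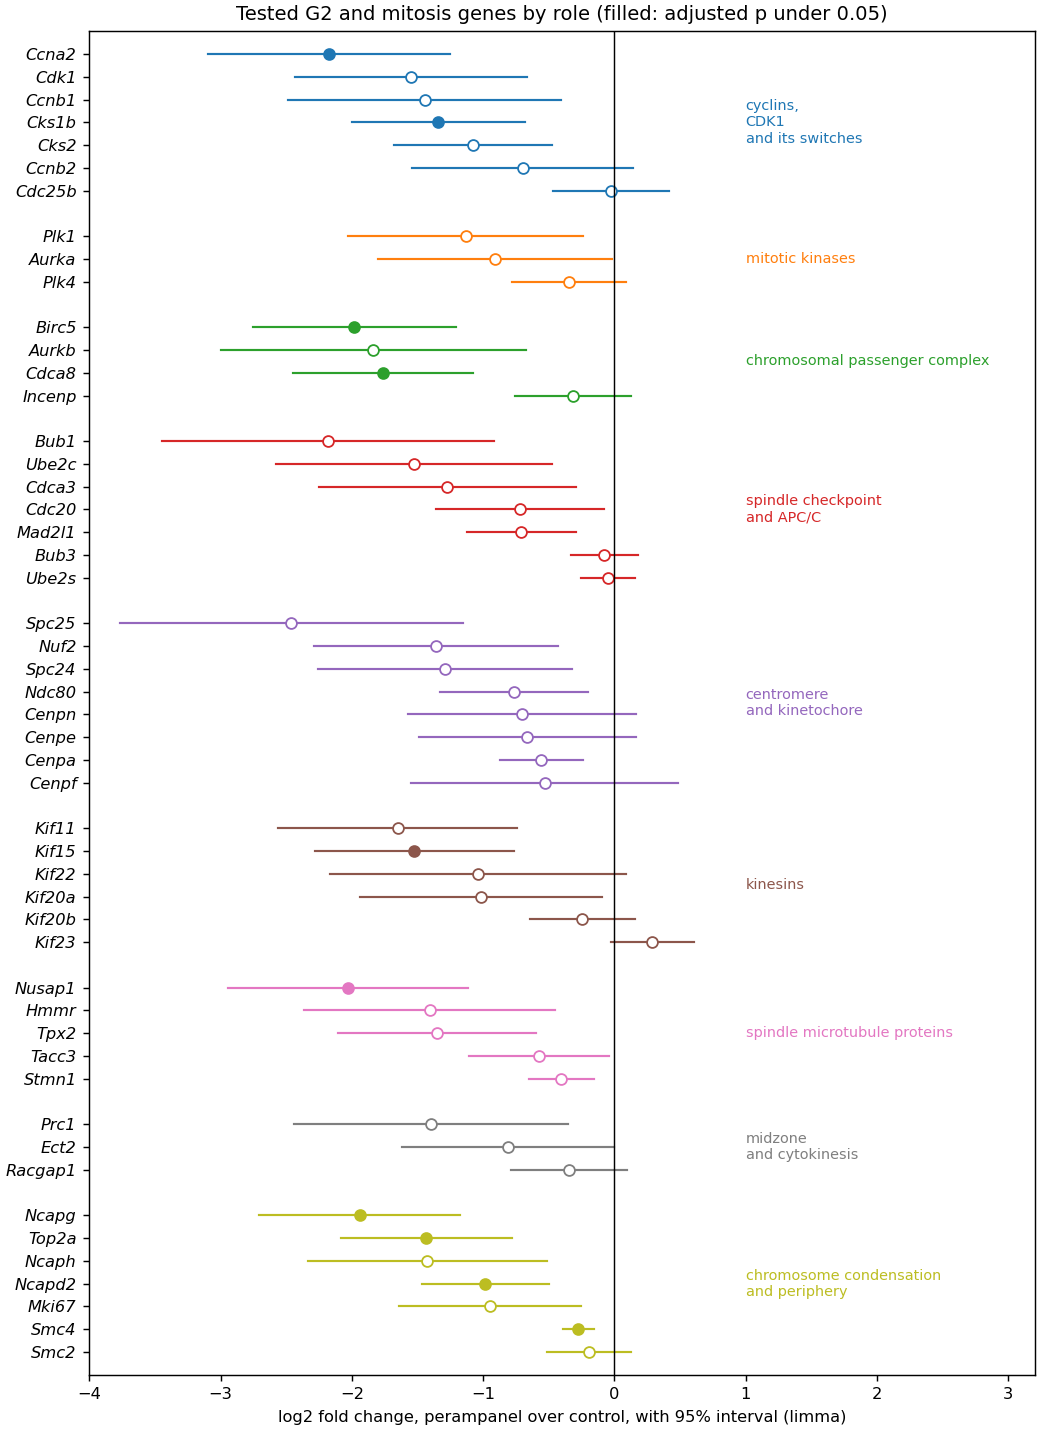
Log2 fold change, perampanel over control, of the 50 tested genes (points) with 95% intervals (lines), by role; filled points passed limma at an adjusted p under 0.05. The points run from -2.46 for Spc25 to 0.29 for Kif23, and intervals are widest for genes with few reads.

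Fold changes were smaller among genes with more reads. Of the 10 genes that averaged 50 or more, 3 were called when only such genes were tested (Ccna2, Top2a and Smc4), and the median fold change of the 10 was -0.34. The 6 genes with folds nearest to zero apart from Smc4, Bub3, Ube2s, Cdc25b, Smc2, Kif20b and Kif23, are among those with more reads, with means of 46.6 to 245. All 10 called genes had means between 19.1 and 893. With quantile scaling the calls of Cks1b (-1.30), Kif15 (-1.36), Top2a (-1.44) and Ncapd2 (-0.96) were lost. The library kit does not mark strand, and 6 of the 10 share exon bases with another annotated gene (Ccna2 with Exosc9, Nusap1 with Oip5, Ncapg with Lcorl, Cdca8 with 9930104L06Rik, and Top2a and Ncapd2 with noncoding genes), so reads of those stretches cannot be assigned by strand. The same limit holds for 21 of the 60 genes in all, among them Ube2s (with Rpl28), Cdc25b (with Spef1) and Cdc20 (with Elovl1).

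The 10 genes under the filter had means of 2.27 to 9.33 normalized read counts and were not tested. They were Foxm1, the transcription factor that drives the G2 genes, Ccnf, Cdc25c, Nek2, Bub1b, Ttk, Cenpm, Kif2c, Kif4 and Anln. Together they took 31.4, 22.5 and 6.74 CPM under perampanel and 57.0, 35.3 and 39.4 in controls, without overlap. Foxm1 had 6, 8 and 3 reads under perampanel and 12, 12 and 17 in controls. The groups did not overlap in Foxm1, in Cenpm (4, 3 and 2 reads under perampanel, and 17, 8 and 8 in controls), in Kif2c (3, 3 and 0 under perampanel, and 11, 4 and 11 in controls) and in Anln (5, 2 and 1 under perampanel, and 11, 9 and 7 in controls). How often the groups do not overlap among all genes with so few reads was not computed, so no result is read from these genes. The mean was lower under perampanel for 9 of the 10, against 55.9% of all genes with a mean of 2 to 10, and Cdc25c was the exception.

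Other genes of the pathway were read from lists of genes that are not among the 60. Of 58 tested genes in the list of other mitotic genes 5 fell and none rose by limma, with a median fold change of -0.22: Hmgb2, a chromatin protein (-0.66), Lmnb1, lamin B1 of the nuclear envelope (-0.80), the kinetochore protein Cenph (-2.17), the GTPase Ran (-0.33) and its binding protein Ranbp1 (-0.38). The calls of Cenph, Ran and Ranbp1 were each lost when some single libraries were left out, Ranbp1 with any of the 6. Among 14 genes of condensin II and cohesin 1 fell by limma, Esco2, the cohesin acetyltransferase of S phase (-2.08, lost without some single libraries), and the median was 0.00. edgeR called 2, Esco2 and the condensin II subunit Ncapg2, which is named after its values were seen. Ncapg2 had 7.14, 7.06 and 6.87 normalized read counts under perampanel and 19.7, 24.7 and 17.5 in controls (log2 -1.42, limma adjusted p = 0.0546, edgeR adjusted p = 0.0332). Cenph, Esco2 and Ncapg2 had perampanel means of 5.10, 4.20 and 7.02, so they passed the filter through the controls. None passed of 16 genes of the anaphase-promoting complex, a list that also holds its regulators Fzr1 and Fbxo5. Nor did any of 13 DREAM and MuvB regulators, which repress and activate G2 genes through the CHR, or of 11 genes of G2 entry control. The medians of these 3 lists were -0.04, -0.11 and -0.06. At an unadjusted p under 0.05 the counts in these 3 lists were 2, 3 and 2, all lower, against 4.97% of all tested genes. In each of them edgeR called 0. Summed in CPM over all genes of a list, these 3 lists were lower under perampanel without overlap, at ratios of 0.953, 0.893 and 0.928. These sums were not tested.

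Genes of S phase, the step before, were lower too. Of 48 tested, 13 fell and none rose by limma, and the median was -0.36. They summed to 1383, 1471 and 1284 CPM under perampanel and 2059, 1871 and 1882 in controls, a ratio of 0.712. The treated libraries differed less among themselves in this sum (1380 ± 93.1 CPM) than in that of the 60 G2 and mitosis genes (1240 ± 263; SD, n = 3 each), a difference that was not tested. Mcm5, a helicase subunit, had 98.9, 97.8 and 97.3 normalized read counts under perampanel and 167, 175 and 146 in controls and fell by 0.72 ± 0.12 (limma adjusted p = 0.00128). Pcna, the replication clamp, had 265, 292 and 276 under perampanel and 367, 310 and 309 in controls and did not pass (log2 -0.24, limma adjusted p = 0.324). Rrm2, a subunit of ribonucleotide reductase, was lowest in perampanel 3, with 37.7, 24.2 and 4.58 under perampanel and 85.6, 92.2 and 119 in controls, and fell by 2.49 ± 0.38 (limma adjusted p = 0.000623).

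**Figure D4:**
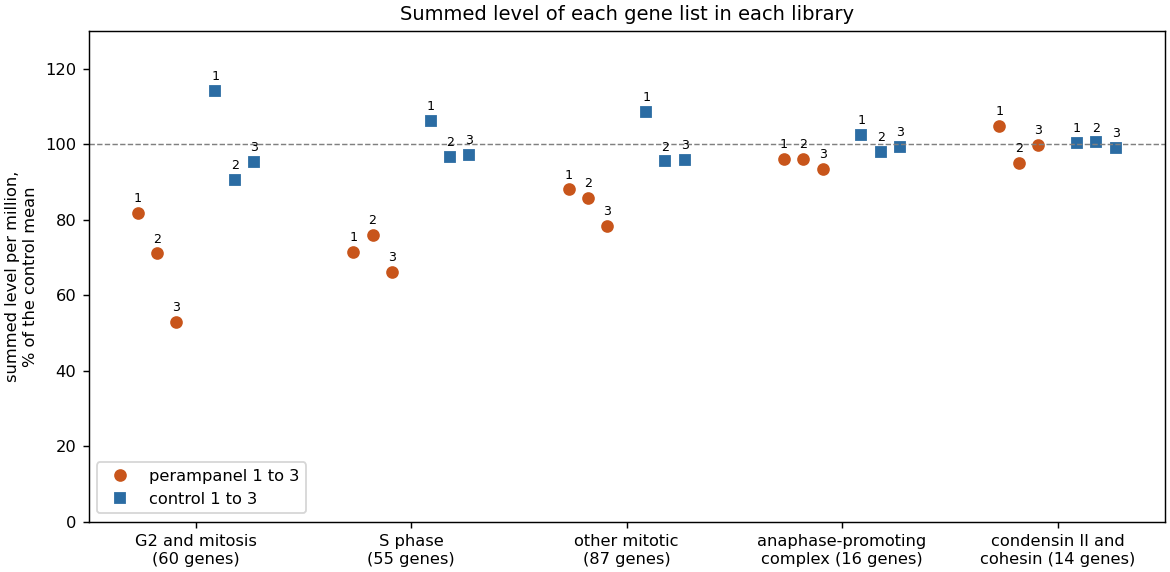
Summed level of 5 gene lists in each library (perampanel 1 to 3 orange circles, control 1 to 3 blue squares, numbered by library), in CPM, as a percentage of the control mean (vertical axis, from 0). Perampanel libraries lie at 81.8, 71.1 and 53.0% for the 60 G2 and mitosis genes and at 71.4, 75.9 and 66.3% for S phase. They lie at 95.1 to 105% for condensin II and cohesin and at 93.6 to 96.3% for the anaphase-promoting complex.

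Count tests gave the same genes in part. On the whole reads recovered from the values, edgeR called 10 of the 50 genes lower, against 0.738% of all tested genes, and they were the 10 that limma called. DESeq2 gave an adjusted p to only 5 of the 50, since it set aside genes with low counts, and called 1 of them, Smc4, against 0.549% of the genes with an adjusted p. Top2a, which limma and edgeR called, was among the 5 and did not pass (log2 -1.16, DESeq2 adjusted p = 0.759). In the authors' deposited table, 6 of the 60 genes have an adjusted p, and 1 of them, Smc4, is lower with an adjusted p under 0.05 (0.0101), against 0.63% of the genes with an adjusted p. By unadjusted p, 25 of the 60 are lower in the authors' deposited table, against 1.35% of all genes with a p-value there. The smallest of these p-values in the authors' deposited table were those of Smc4, Cdca8 and Ncapg (log2 fold changes of -0.27, -1.84 and -1.92). Among the genes called by limma, Ccna2 and Top2a did not reach an unadjusted p under 0.05 in the authors' deposited table (0.0549 and 0.0846). The adjusted p of Top2a in the authors' deposited table is 0.815.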

How the data were processed

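Poly(A) libraries of inguinal lymph node cell suspensions from 3 perampanel-treated and 3 control SJL mice were made with a NEBNext Ultra II RNA library kit, per the labels' extract protocol. The deposited table of 23307 genes holds normalized signal per library, that is read counts divided by a size factor, with the authors' log2 fold changes, a Wald score, and p-values. Per the submitters' processing notes, DESeq, DESeq2 and the build GRCm38 were used. The aligner and the counter are not named in what was available. The authors' deposited fold had the sign of perampanel over control for 99.5% of genes with a mean of at least 50, and the deposited score has the reverse sign.

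All non-zero values were whole multiples of the value of 1 read (100% within 1e-06), which gave back whole reads and depths of 1779724 to 2208589. The floor of 3 reads was 2.74 to 3.43 normalized read counts, and it covers counting error only. Since the values were normalized, the test was limma 3.58.1 (R 4.3.3) with a trend on log2(value + 1), for genes with a mean of at least 10 over the 6 libraries, with Benjamini-Hochberg adjustment over all 9076 genes. Folds are differences between group means on that log2(value + 1) scale. The pseudocount shrinks the differences of low values, while a single low library weighs more in a mean of logs than in a ratio of means. edgeR 4.0.16 (quasi-likelihood) and DESeq2 1.42.0 were run on the recovered reads. The limma script was tested on simulated data. Alternatives were other pseudocounts, filters, scalings, a replicate block and leaving out each library.

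The result of 1 marker gene is not reported here, and the sum of germinal centre B cell markers is over 4 others. Sums of lists are in CPM, with the normalized reads of all genes of a library scaled to 1000000. Coordinates and exon lengths are from GENCODE vM21 on GRCm38, and promoter windows from RefSeq on GRCm38.p6, each 250 bases before to 50 after a start. Full values were given for each gene called and for the tested gene of highest mean in each role, and in addition for members near the threshold or of central role, which were chosen after their values were seen. Other pathway genes were named by smallest p, up to 5 per list, with Mcm5, Pcna and Rrm2 for S phase. The genes, lists and rules were chosen with earlier results of these data known. Same-numbered libraries were not paired by the labels and deviated together only weakly, so numbers serve as names.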

Additional observations from a re-analysis of the deposited data

How the results depend on the processing

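Against 10 G2 and mitosis genes called in the main analysis, DESeq2 called 1, a minimum mean of 50 called 3, quantile scaling called 6, no filter called 23, and leaving out single libraries called 1 to 22. Against 100 genes called in all, DESeq2 called 37, no filter called 179, and leaving out single libraries called 43 to 116. Against 19 called in the other pathway lists, DESeq2 called 3, and leaving out single libraries called 11 to 17. The median fold change of the tested genes, -1.03, was -0.34 at a minimum mean of 50 and -1.47 to -0.59 when single libraries were left out, and the cause was not tested. Quantile scaling gave 53 genes lower and 25 higher and TMM 57 and 43, against 62 and 38. With the replicate number as a block the calls were 15 genes, among them all 10, of 103 in all and 19 in the pathway lists. Same-numbered libraries correlated at 0.03, 0.03 and 0.02 in their deviations, and each correlated best with its own number. Ube2s (-0.05) ranged from -0.14 to 0.028 when single libraries were left out, turning to 0.028 without control 1 and 0.01 without perampanel 2. Among the single genes tracked, 219 values under alternatives kept direction and call, 26 lost the call and 2 gained it. A depth of 1779724 to 2208589 reads per library left 10 of the 60 genes below the filter.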
